A study of Rattus norvegicus with 8 samples.

Results

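Mt-cyb, Mt-co1, Mt-co2, Mt-co3, Mt-atp6 and Mt-atp8 are the genes of mitochondrial DNA that encode subunits of respiratory complexes III, IV and V. They were examined in the hippocampus of aged rats given a gene therapy vector for insulin-like growth factor I (IGF-I). The 6 genes were taken by their Ensembl gene IDs from a table of 26405 IDs, and all 6 were abundant enough to be among the 14522 IDs tested. The pairing of these IDs with symbols came with the list of members, since the deposited tables hold IDs alone. The genes were selected on their read counts, with their higher level in the IGF-I group already known, so that difference is described here without a test and supports nothing by itself.

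Mitochondrial DNA is a small circular genome present in many copies per cell. Its genes are transcribed as long precursors that are cut into single RNAs, and the messenger RNAs are translated inside the mitochondrion. The encoded subunits sit in the core of the respiratory chain, which passes electrons to oxygen and builds the proton gradient used to make ATP, and the partner subunits come from nuclear genes. Neurons draw most of their ATP from this chain.

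The 8 animals were female Sprague-Dawley rats aged 28 months, and each library was prepared from the RNA of 1 right hippocampus, so each stands for 1 rat. In the IGF1 group, 4 rats had received an adenoviral vector carrying the rat IGF-I gene into the cerebral ventricles. In the DsRed group, 4 rats had received, by the same route, the control vector that the labels describe as empty and name for the red fluorescent protein DsRed. All 8 rats thus carried an adenoviral vector, and no rat without a vector and no young rat was among them. The labels do not give the time after injection, the vector's promoter or the cells it reached. In whole tissue, a change in the number of cells of a type and a change in RNA per cell cannot be told apart, nor can more mitochondrial DNA and more transcript per copy.

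Reads assigned to genes numbered between 16347636 and 27377086 per library. IGF1 replicate 1 stood apart from the rest, its Spearman correlations across genes averaging 0.986, where those of the remaining 7 libraries averaged 0.991 to 0.994. Marker genes of hippocampal and other cell types were not analysed here, because the IDs could not be paired with symbols, so the tissue label was not checked and the part of cell composition in any value below was not tested. The same holds for the Igf1 transcript itself.

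Counts of the 6 genes ranged from 46258 reads for Mt-atp8 in DsRed replicate 4 to 1275555 reads for Mt-co1 in IGF1 replicate 1. The counting error alone was therefore between 0.0885% and 0.465% of a value, well below the spread between rats. Levels are given as CPM, the usual read count relative to library size, with library sizes scaled by TMM (trimmed mean of M values). Longer transcripts give more reads, and gene lengths were not used here, so levels were compared between libraries and not between genes.

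Cytochrome b, the product of Mt-cyb (ENSRNOG00000031766), is the subunit of complex III that mitochondrial DNA supplies and carries its quinone binding sites. Mt-cyb was at 15499, 15847, 12513 and 13532 CPM in the IGF1 libraries (replicates 1 to 4) and at 13288, 11427, 11576 and 10737 CPM in the DsRed libraries, in the same order. IGF1 replicates 1, 2 and 4 lay above every DsRed library, whereas IGF1 replicate 3 lay below DsRed replicate 1, so the groups overlapped. The group means were 14348 ± 1592 CPM and 11757 ± 1084 CPM (SD, n = 4 each), and the fitted log2 fold change was 0.29 (standard error, SE, 0.100).

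Complex IV, cytochrome c oxidase, hands the electrons to oxygen. Its catalytic subunit 1, which holds the heme and copper site where oxygen is reduced, is encoded by Mt-co1 (ENSRNOG00000034234). Mt-co1 took more reads than any other ID in the table, on average 3.88% of the gene counts. Its level was 46540, 44959, 38288 and 40806 CPM in the IGF1 libraries (replicates 1 to 4) and 38380, 33895, 35780 and 32636 CPM in the DsRed libraries, in the same order. The groups met almost exactly, the lowest IGF1 library (replicate 3) lying 0.239% below the highest DsRed library (replicate 1). The means were 42648 ± 3781 CPM and 35173 ± 2498 CPM (SD, n = 4 each), and the fitted log2 fold change was 0.28 (SE 0.093), the smallest of the 6.

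Subunit 2, which takes electrons from cytochrome c through a copper centre, is encoded by Mt-co2 (ENSRNOG00000030371). Mt-co2 was at 16088, 15919, 12979 and 13655 CPM in the IGF1 libraries (replicates 1 to 4) and at 13498, 11532, 11455 and 10770 CPM in the DsRed libraries, in the same order. As for Mt-cyb, 3 IGF1 libraries lay above all DsRed libraries and IGF1 replicate 3 lay below DsRed replicate 1. The log2 fold change was 0.31 (SE 0.101). Subunit 3, a core subunit without a metal centre, is encoded by Mt-co3 (ENSRNOG00000030700). Mt-co3 was at 19253, 18780, 15374 and 16063 CPM in the IGF1 libraries (replicates 1 to 4) and at 15406, 13581, 13850 and 12681 CPM in the DsRed libraries, in the same order. Here too the groups met at IGF1 replicate 3 and DsRed replicate 1, which differed by 0.206% of the higher value. The log2 fold change was 0.32 (SE 0.098).

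Complex V is the ATP synthase. Mt-atp6 (ENSRNOG00000031979) encodes subunit a, which forms the proton path beside the rotor, and Mt-atp8 (ENSRNOG00000033299) encodes a small membrane subunit of the stator. In mammals the reading frames of these genes overlap and are carried by 1 messenger RNA. How reads in the overlap were counted is not given in the sources used here, so the split of reads between Mt-atp6 and Mt-atp8 is uncertain. Mt-atp6 was at 18341, 19584, 14822 and 16325 CPM in the IGF1 libraries (replicates 1 to 4) and at 16000, 13131, 13588 and 12100 CPM in the DsRed libraries, in the same order. DsRed replicate 1 again lay among the IGF1 libraries, above IGF1 replicate 3. The log2 fold change was 0.33 (SE 0.113).

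Mt-atp8 was at 3530, 4094, 3229 and 3797 CPM in the IGF1 libraries (replicates 1 to 4) and at 3445, 2649, 2896 and 2497 CPM in the DsRed libraries, in the same order. Its group means were 3662 ± 370 CPM and 2872 ± 416 CPM (SD, n = 4 each), and its log2 fold change was 0.35 (SE 0.110), the largest of the 6. IGF1 replicate 1, the highest library for the genes of complex IV, was only the third highest for Mt-atp8. The spread of the 6 fold changes, 0.28 to 0.35, was smaller than the standard error of any one of them. The 6 genes were measured in the same libraries, so this comparison cannot decide whether their fold changes differ. Differences between them were not tested.

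**Figure D1:**
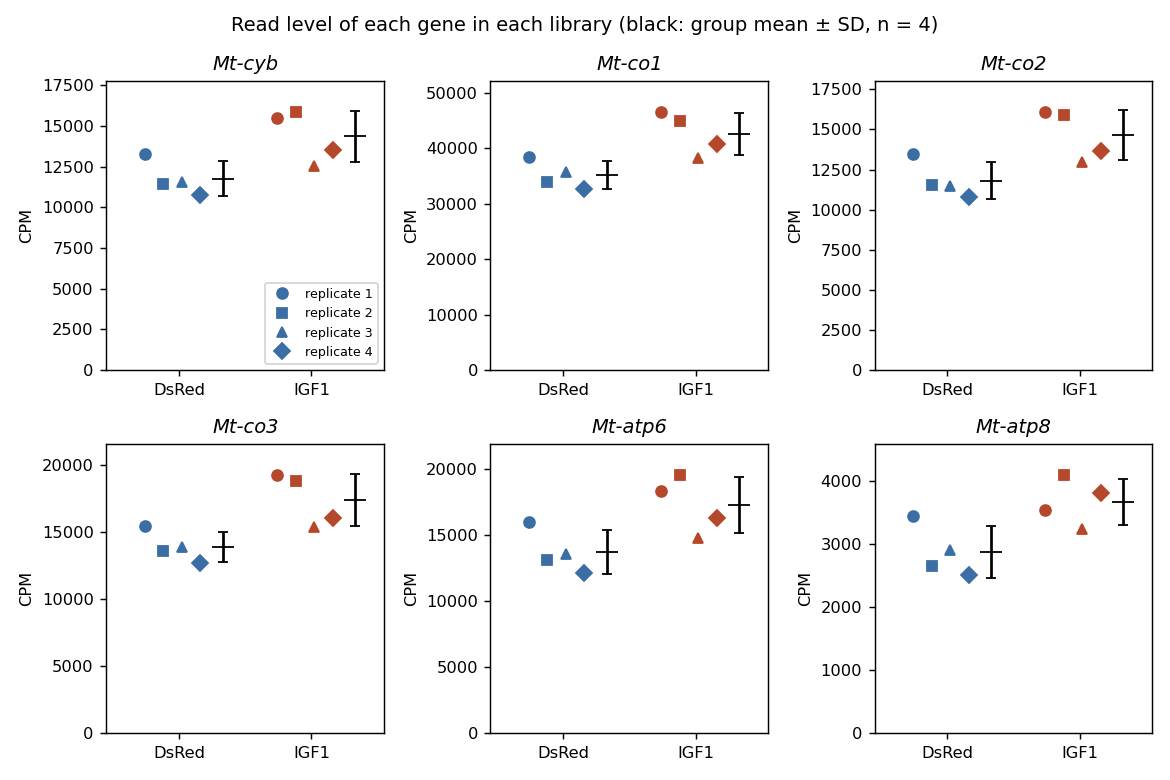
Level of each gene in CPM (axis from 0) in the 4 DsRed and 4 IGF1 libraries, with 1 symbol per replicate number and the group mean ± SD in black. In each panel 3 IGF1 libraries lie above the DsRed libraries and IGF1 replicate 3 (triangle) lies below DsRed replicate 1 (circle), by 0.206% for Mt-co3 up to 7.36% for Mt-atp6.

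The 6 genes together took 11.9%, 11.5%, 9.81% and 10.2% of the gene counts in the IGF1 libraries (replicates 1 to 4). In the DsRed libraries, in the same order, they took 9.85%, 8.73%, 9.02% and 8.38%. The means were 10.9% ± 1.01 and 8.996% ± 0.629 (SD, n = 4 each), a difference of 1.87 percentage points. A single pair of rats, IGF1 replicate 3 and DsRed replicate 1, again kept the groups from separating.

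**Figure D2:**
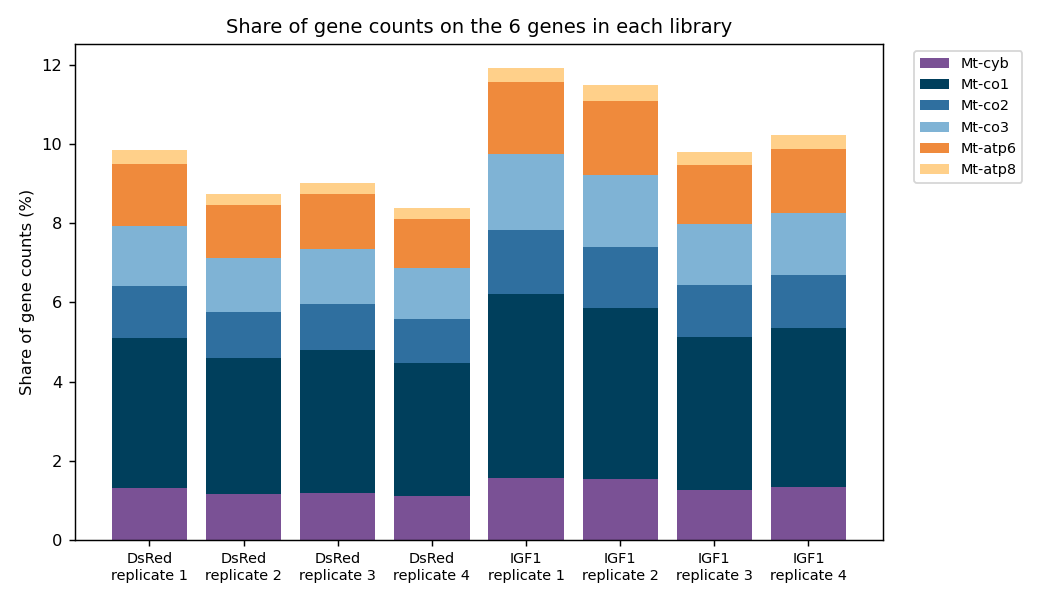
Share of the gene counts (%) on each of the 6 genes, stacked, in each DsRed and IGF1 library. The stacks reach from 8.38% in DsRed replicate 4 to 11.9% in IGF1 replicate 1, and DsRed replicate 1 (9.85%) stands slightly above IGF1 replicate 3 (9.81%).

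Fitted levels were higher in the IGF1 group for all 6 genes, as they were for 51.1% of the IDs tested. The median log2 fold change of the 6 was 0.32, beside 0.0027 over all IDs and -0.015 over the 200 IDs with the highest levels. A log2 fold change at least as large as the lowest of the 6 was found for 756 IDs, 5.21% of those tested. Among the 200 most abundant IDs, 15 reached it. These were 9 other IDs and the 6 genes, which reach it by construction because the lowest of them set the cut. By the quasi-likelihood test of edgeR, with p adjusted after Benjamini and Hochberg, 0 of the 14522 IDs (0%) passed a threshold of 0.05, and so none of the 6 did. At an unadjusted p under 0.05 that test listed 958 IDs (6.60%), and it listed 626 without DsRed replicate 2 (which also gave 1 adjusted call) and 1439 without IGF1 replicate 4. The likelihood ratio test of edgeR called 11 of 14522 IDs and DESeq2 called 13 of the 20653 IDs to which it gave a p. Of these calls 0 were among the 6 genes, from which nothing is read, since calls were so few among all IDs.

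**Figure D3:**
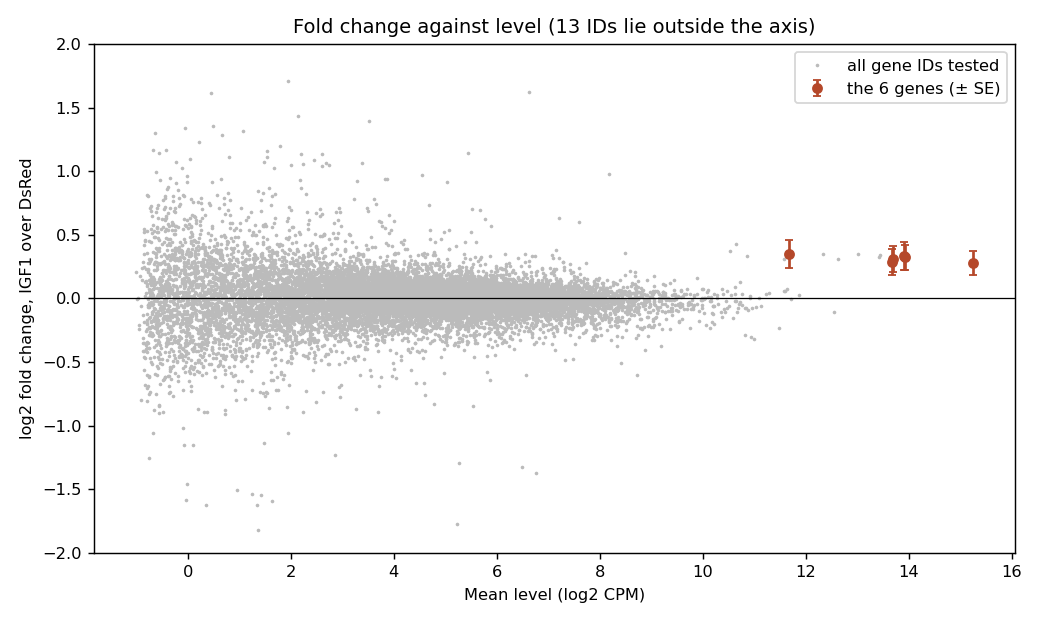
Log2 fold change of IGF1 over DsRed against mean level in log2 CPM for the IDs tested (grey points, with 13 IDs outside the axis) and for the 6 genes (red points, bars ± SE). The 6 genes lie between 0.28 and 0.35, at the abundant end of the range.

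In 0 of the 6 genes did every IGF1 library lie above every DsRed library, which was the case for 2.74% of all IDs. The lowest IGF1 library lay 0.206% below the highest DsRed library for Mt-co3 and 0.239% below it for Mt-co1, but 3.84% to 7.36% below it for the other 4 genes. With RLE scaling it was 2 of 6, namely Mt-co1 and Mt-co3, whose groups met most closely, beside 2.72% of all IDs. Without IGF1 replicate 3 it was 6 of 6, beside 4.78% of all IDs, and without DsRed replicate 1 it was also 6 of 6, beside 4.52%. Because these genes were picked with this contrast in view, nothing is read from these counts.

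Leaving out 1 library at a time moved the fold changes without reversing any of the 6. That is no support for the difference, since the genes were selected on it in these same libraries. The lowest log2 fold changes of Mt-co1, Mt-co2 and Mt-co3 were found without IGF1 replicate 1, at 0.24, 0.27 and 0.27. The highest of Mt-cyb, Mt-atp6 and Mt-atp8 were found without DsRed replicate 1, at 0.35, 0.42 and 0.45. Leaving out the library that stood apart moved Mt-atp8 the other way, a difference that was not tested. Without IGF1 replicate 1 its log2 fold change was 0.37, above the 0.35 found with all libraries, while those of the other 5 genes were lower than with all libraries. The reverse was seen without IGF1 replicate 4, where Mt-atp8 was lower (0.34) and the other 5 genes were higher than with all libraries.

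**Figure D4:**
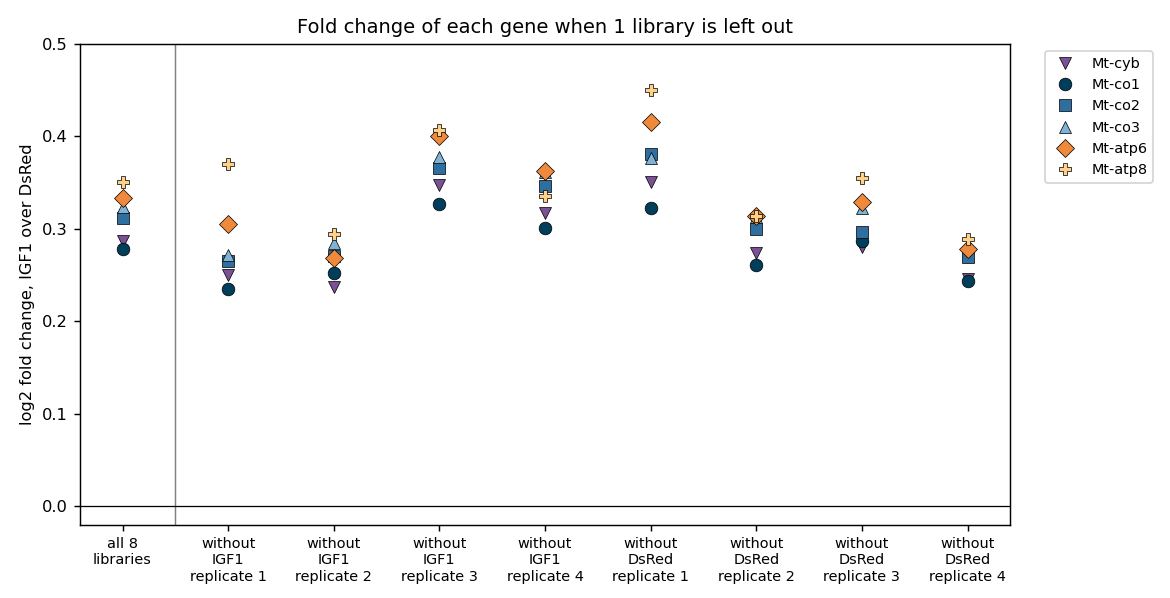
Fitted log2 fold change of IGF1 over DsRed for each gene with all 8 libraries and with each library left out in turn. Values stay between 0.24 and 0.45, and Mt-atp8 separates upward from the other genes without IGF1 replicate 1.

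The make-up of the 6-gene reads was nearly constant, and most of what varied between libraries was a common level. The mean of the 6 genes' log2 CPM accounted for 95.5% of their variance over the 8 libraries. That value includes the group difference for which the genes were selected, and it was not computed within groups. Mt-co1 supplied 38.8% ± 0.751 of the 6-gene reads after the IGF-I vector and 39.5% ± 0.826 after the control vector (SD, n = 4 each). Mt-co3 supplied 15.8% ± 0.298 and 15.6% ± 0.144, Mt-atp6 15.7% ± 0.530 and 15.3% ± 0.477, Mt-co2 13.3% ± 0.160 and 13.2% ± 0.281, and Mt-cyb 13.04% ± 0.181 and 13.2% ± 0.135. For these 5 genes the ranges of the groups overlapped.

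Departures from a constant make-up were small but larger than counting error, with a chi-square of 244 per degree of freedom over the 6 genes and 8 libraries. Mt-atp8, Mt-co1 and Mt-atp6 contributed 29.6%, 26.9% and 26.0% of it. Mt-atp8, with the fewest reads of the 6, supplied 2.96%, 3.44%, 3.32% and 3.64% of the 6-gene reads in the IGF1 libraries (replicates 1 to 4) and 3.44%, 3.07%, 3.25% and 3.07% in the DsRed libraries, in the same order. Both extremes of Mt-atp8 were thus in the IGF1 group, the lowest in replicate 1 and the highest in replicate 4.

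The reads assigned to the genes of complex V also varied against each other. How reads in their overlap were counted is not given, so a change in either gene cannot be read from this ratio. Reads of Mt-atp8 per 100 reads of Mt-atp6 numbered 19.2, 20.9, 21.8 and 23.3 in the IGF1 libraries (replicates 1 to 4) and 21.5, 20.2, 21.3 and 20.6 in the DsRed libraries, in the same order. The means were 21.3 ± 1.68 and 20.9 ± 0.622 (SD, n = 4 each), so the difference between groups was smaller than the spread within either. Of the 8 ratios computed, the coefficient of variation over the 8 libraries was 8.20% for Mt-atp8 to Mt-co1, 5.63% for Mt-atp8 to Mt-atp6 and 5.29% for Mt-atp6 to Mt-co1. It lay between 2.74% and 3.32% for Mt-co2, Mt-co3 and Mt-cyb to Mt-co1, and was 1.65% and 1.64% for Mt-co3 and Mt-cyb to Mt-co2.

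**Figure D5:**
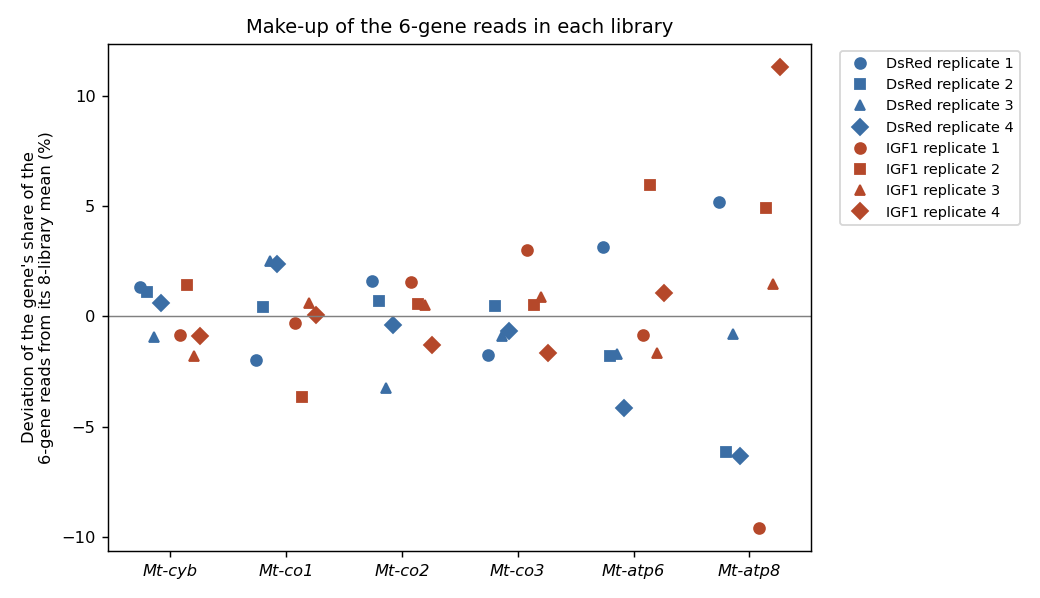
Deviation (%) of each gene's share of the 6-gene reads from its own mean over the 8 libraries, in the DsRed (blue) and IGF1 (red) libraries. Mt-atp8 spreads most, from -9.58% in IGF1 replicate 1 to 11.3% in IGF1 replicate 4, while Mt-cyb stays between -1.80% and 1.43%.

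Across the 8 libraries the 6 genes went up and down together. Over the 15 pairs of genes, Pearson's r of log2 CPM lay between 0.883 and 0.995 and Spearman's rho between 0.905 and 1. These values are a description and carry no p, since the genes were selected with their shared group difference known and that difference enters r. When the 2 libraries that lay farthest from the first gene's median were left out, r was 0.874 to 0.998. The closest pair was Mt-cyb with Mt-atp6 (r = 0.995), which ranked the 8 libraries identically, as did Mt-co1 with Mt-co3 (r = 0.994). All genes of a library also share its depth and scaling. With the group means removed, r lay between 0.707 (Mt-co3 with Mt-atp8) and 0.990 (Mt-co2 with Mt-cyb).

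The 5 lowest values of r were those of Mt-atp8 with the other genes, from 0.883 with Mt-co3 to 0.947 with Mt-atp6. IGF1 replicate 1 moved these: without it, the lowest r of all 15 pairs was 0.963, and without any other single library it lay between 0.830 and 0.914. The order of libraries was otherwise much the same for each gene. DsRed replicate 4 was the lowest of the 8 for all 6 genes, IGF1 replicate 3 ranked at 5 and DsRed replicate 1 at 4 from the top.

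Within a group, the median spread of the 6 genes was above that of abundant transcripts in general. Their within-group SD of log2 CPM was 0.116 for Mt-co1, 0.141 for Mt-co3, 0.147 for Mt-cyb, 0.148 for Mt-co2, 0.174 for Mt-atp6 and 0.177 for Mt-atp8. The median over the 6, 0.147, compared with 0.106 over the 200 most abundant IDs and 0.137 over all IDs tested. By this SD, pooled over both groups, the genes of complex V were the most variable of the 6 and Mt-co1 the least. For Mt-atp8 this did not hold in each group. Its coefficient of variation in CPM was 14.5% in the DsRed group, the highest of the 6. In the IGF1 group it was 10.1%, below Mt-co2 (10.8%), Mt-cyb (11.1%), Mt-co3 (11.1%) and Mt-atp6 (12.2%).

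Other IDs followed the same pattern. Of 12734 other IDs with a mean level of at least 1 log2 CPM, 39 had a mean Pearson's r of at least 0.9 with the 6 genes over the 8 libraries. Group means were not removed, so a group difference like that of the 6 genes enters this r. The most alike were ENSRNOG00000029707, with a mean r of 0.980 and a log2 fold change of 0.34 (SE 0.108), and ENSRNOG00000029971, with a mean r of 0.971 and a log2 fold change of 0.31 (SE 0.108). These were at ranks 6 and 9 by share of gene counts, and the tables used here do not name them.

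The share of gene counts on the 6 genes was set against 3 other library measures over the 8 libraries. This share carries the group difference for which the genes were selected, and that difference enters each r below. The p values here and in the next paragraph therefore decide nothing about a relation between rats. No r with group means removed was computed for these measures. With the share of tabulated reads assigned to no gene, Pearson's r was 0.698 (exact permutation p = 0.0504, 0.151 after adjustment over the 3 measures) and Spearman's rho 0.619 (exact permutation p = 0.115, 0.345 adjusted). IGF1 replicate 1 had the highest value of both, 32.9% of reads assigned to no gene and 11.9% of gene counts on the 6 genes. DsRed replicate 4 had the lowest of both, 30.7% and 8.38%. Without these 2 libraries, which lay farthest from the median, r was 0.103, so the size of r depended on them. With 1 library left out, the unadjusted exact permutation p ran from 0.0192 without IGF1 replicate 3 (r = 0.766) to 0.336 without IGF1 replicate 1 (r = 0.417). It was also under 0.05 without IGF1 replicate 2 (r = 0.838) and without IGF1 replicate 4 (r = 0.754), and between 0.0698 and 0.142 without any one DsRed library. Reads assigned to no gene averaged 31.9% ± 0.781 after the IGF-I vector and 31.2% ± 0.397 after the control vector (SD, n = 4 each). Where these reads lie is not known, and their part in the higher share of the 6 genes was not tested.

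With the total gene count, r was 0.176 (exact permutation p = 0.671, 0.874 adjusted) and rho 0.048 (exact permutation p = 0.935, 1 adjusted), and r was -0.17 once the 2 most distant libraries were left out. With the number of IDs detected, r was 0.061 (exact permutation p = 0.874, 0.874 adjusted) and rho 0 (exact permutation p = 1, 1 adjusted), and r was -0.61 once the 2 most distant were left out. Nothing is concluded from these p values, for the reason given above, and without IGF1 replicate 1 the values of r were -0.39 and -0.54. Without IGF1 replicate 1 the share of the 6 genes still differed between the groups by 1.52 percentage points, the smallest difference found when 1 library was left out.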

How the data were processed

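Per the labels' protocols, libraries came from a TruSeq RNA preparation kit. The protocols do not state how messenger RNA was enriched. Tools named in the submitters' processing notes are STAR, HTSeq, edgeR and CASAVA 1.8.2, with no role given. Build, annotation, aligner settings and the use of strand are not given in these sources, so reads shared with nuclear copies of mitochondrial DNA, with overlapping genes or with antisense transcripts could not be told apart. The deposited read counts are whole numbers per Ensembl ID. A summary row of reads assigned to no feature held 30.7% to 32.9% of tabulated reads and entered neither library sizes nor tests. The deposited normalised signal, for 13595 IDs, equals count divided by 1 number per library (largest relative deviation 3.05e-09) and served for 1 alternative, on a log2(value + 1) scale.

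Each column was assigned by its rat identifier in the labels. The 28 pairs of libraries differed by at least 5.74 chi-square units per degree of freedom, so none was deposited in duplicate. IDs were kept by filterByExpr (minimum count 10, minimum total 15) in edgeR 4.0.16 under R 4.3.3, scaled by TMM, and compared by group alone with glmQLFit and glmQLFTest (two-sided), at an adjusted p of 0.05. SE was obtained as log2 fold change divided by the root of F. Log2 CPM used a prior count of 2. Relations of the 6-gene share to library measures used exact permutation of 8 libraries. Nothing is concluded from their p values, since the share carries the group difference used to choose the members. The permutation tests planned for pairs of members are not reported, since the choice of members used the group difference that enters them. The scripts were tested on simulated data. Alternatives used DESeq2 1.42.0 and limma 3.58.1, other scalings and filters, the replicate number as a block and leaving out each library.

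The members and gene lists were chosen with earlier results of these data known. Named IDs were the 6 members and the 2 other IDs with the highest mean r to them. Of the 26405 IDs, 0 matched the rat gene table (GRCr8), so partner subunits, other pathway lists and cell type markers, fixed by symbol, were not analysed here, and no sequences or positions are given.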

Additional observations from a re-analysis of the deposited data

How the results depend on the processing

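All 6 fold changes, their median and the difference in share were positive under each alternative run. This supports nothing by itself, since the genes were selected with that difference known and the alternatives use the same libraries. The median log2 fold change was 0.27 to 0.38 over 19 alternatives, and the difference in share 1.21 to 2.32 percentage points over 13, the outer values with other denominators (all tabulated reads, and 100 counts of other IDs). Alternatives for non-overlapping groups, unadjusted counts, single genes, library measures and the fit without both libraries numbered 1 were chosen after seeing the data. Calls by edgeR's quasi-likelihood test numbered 0, with 958 IDs under an unadjusted p of 0.05. The likelihood ratio test called 11 of 14522 IDs and DESeq2 13 of 20653. Leaving out 1 library gave 0 to 1 calls (1 without DsRed replicate 2). At an unadjusted p under 0.05 it gave 626 (without the same library) to 1439 IDs (without IGF1 replicate 4). IDs with non-overlapping groups numbered 980 to 1435 (562 to 751 higher in IGF1), against 684 with all libraries, and such members 0 to 6. Fewer libraries raise these by construction. Without both libraries numbered 1 they were 1891 IDs (1033 higher) and 6 members. TMM with all libraries gave 0 such members (398 of 14522 IDs higher). Members were 2 with RLE scaling (395), total counts (191), scaling without the members (402) and over 1 CPM in 4 libraries (399 of 13595). Nothing is read from these counts. The lowest r among pairs of members was 0.707 with group means removed and 0.830 to 0.963 with 1 library left out. The relation of the share to reads assigned to no gene had r of 0.417 to 0.838 with 1 library left out. Its unadjusted exact permutation p fell under 0.05 without IGF1 replicate 2, 3 or 4 (r = 0.838, 0.766 and 0.754). This decides nothing, since the group difference used to choose the genes enters r. With 1 library left out, r was -0.39 to 0.430 with total gene counts and -0.54 to 0.285 with IDs detected. Both were lowest without IGF1 replicate 1, for a cause not tested. A replicate block by number gave 0 calls and 878 IDs under an unadjusted p of 0.05. The median log2 fold change was 0.32 and the difference in share 1.87 percentage points. Correlations of deviations between libraries of the same number were 0.055, 0.126, 0.244 and 0.134. The labels name separate rats, so no pairing was assumed. Alternatives for the nuclear-encoded subunits were not run, for want of symbols. Counting error for the 6 genes was 0.0885% to 0.465% of a value, and each group held 4 rats. What else limits these values was not tested.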
